A study of Mus musculus with 5 samples.

Results

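Glucose metabolism was examined gene by gene in mouse lung natural helper cells through 39 named genes: glucose transporters, the enzymes of glycolysis, lactate handling, pyruvate dehydrogenase control and the pentose phosphate pathway, and the transcription factor gene Hif1a. The genes were chosen by name, and each was represented by its brightest probe set among those annotated to a single gene. In all, 37 of the 39 were measured, among 19938 genes tested, and Pfkfb1 and G6pdx were not analysed here. Natural helper cells belong to the type 2 innate lymphoid cells: they lack antigen receptors and secrete cytokines such as IL-5 and IL-13. All 5 samples were lineage-negative lung cells of naive C57Bl/6 mice, 6 to 8 weeks old, purified by flow cytometry for Sca-1, CD127 and CD25 with c-Kit low or absent (the sample labels themselves say only lung leukocytes). The unstimulated group (3 arrays) was lysed straight after the sort. The stimulated group (2 arrays) came from cells of the same sort definition kept for 3 days in RPMI-1640 with FCS, Pen/Strep, 2-Me, PMA at 60 ng/ml and ionomycin at 500 ng/ml. PMA switches on protein kinase C and ionomycin lets calcium into the cell, which together mimic antigen receptor signals. No group was cultured without the activators, so culture and stimulation cannot be told apart, and the labels do not say whether samples came from separate mice or pools. The p-values therefore rest on sample-to-sample spread that could be technical.

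Glycolysis splits glucose in the cytosol into pyruvate and yields ATP and building blocks. Glucose enters through GLUT transporters, is trapped by hexokinase, committed by phosphofructokinase, cleaved by aldolase, and carried through the lower enzymes to pyruvate. Pyruvate becomes lactate through lactate dehydrogenase and leaves through monocarboxylate transporters, or enters mitochondria through the pyruvate dehydrogenase complex, which pyruvate dehydrogenase kinases restrain. The pentose phosphate pathway branches off after hexokinase and gives NADPH and ribose for nucleotides. Activated lymphocytes are known to raise glycolysis, in part through the factors MYC and HIF-1.

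Values are log2 expression values, so 1 unit is a 2-fold step. Differences are stimulated minus unstimulated means, given with the standard error (SE) of a limma model fitted to all genes and, where stated, its 95% interval. A gene was called at a Benjamini-Hochberg adjusted p under 0.05 over all genes. The arrays had medians of 5.63 to 5.66, and correlations across probe sets were 0.980 to 0.988 within the unstimulated group, 0.989 within the stimulated group and 0.956 to 0.969 between groups. The median of 13 measured natural helper cell markers was 10.55 to 10.67 on the unstimulated and 10.13 to 10.16 on the stimulated arrays, well above the upper quartile of all values, 7.07. The genes of the sort markers CD127 and CD25, Il7r and Il2ra, read 10.13 to 10.97, while Ly6a, the gene of Sca-1, was not analysed here. Of the 13 markers 5 were called lower (Rora, Id2, Il7r, Kit and Il17rb), where 0.963% of all genes tested were, and none higher (0.737% of all genes). Both stimulated arrays lay below all unstimulated ones for 8 (14.0% of all genes) and above for 3, Il2ra, Il5 and Il13 (18.6%). Il13 read 9.46, 9.73 and 8.56 against 11.51 and 11.81 (limma adjusted p = 0.0942).

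Markers of other lung cells were summed on the linear scale. The sum of 6 endothelial markers was 1882, 1359 and 517 on unstimulated arrays 1 to 3 and 357 and 425 on the stimulated arrays, that of 8 epithelial markers 3132, 2011 and 837 against 551 and 668, and that of 8 neutrophil markers 1305, 629 and 373 against 239 and 244. All 3 sums were highest on unstimulated array 1 and lowest on the stimulated arrays. The sum of 9 macrophage and monocyte markers was 2027, 1992 and 2281 against 1033 and 900. For 9 T cell markers the sum was 2225, 2859 and 1774 against 1609 and 1272. Ccr2 made up the largest part of the macrophage and monocyte sum on every array, and Cd3g that of the T cell sum. Ccr2 was highest on unstimulated array 3, while Lyz2, Cd14 and Cd68 were highest on unstimulated array 1. Whether the Ccr2 and Cd3g signal came from other cells or from natural helper cells was not tested. Dendritic cell markers (8) summed to 932, 831 and 416 against 375 and 364, and mast cell and basophil markers (7) to 201, 286 and 232 against 121 and 124. All 7 sums were lower on both stimulated arrays than on any unstimulated array. The mast cell protease gene Cpa3, named after its values were seen, read 6.47, 7.48 and 6.74 against 4.11 and 4.08 (adjusted p = 0.0640). None of these markers was called by limma (2 endothelial, 1 epithelial, 2 neutrophil, 3 macrophage, 2 T cell, 0 dendritic cell and 1 mast cell and basophil markers had an unadjusted p under 0.05, as had 19.9% of all genes). Both stimulated arrays lay below all unstimulated ones for 5 of 6 endothelial, 4 of 8 epithelial, 3 of 8 neutrophil, 5 of 9 macrophage, 3 of 9 T cell, 2 of 8 dendritic cell and 2 of 7 mast cell and basophil markers (14.0% of all genes). Not every cell type sum was lower. Groups overlapped for NK cell and ILC1 (345, 374 and 249 against 350 and 262), eosinophil (123, 113 and 106 against 103 and 113) and erythroid and platelet markers (115, 129 and 124 against 119 and 124). B cell (189, 234 and 155 against 153 and 148) and fibroblast and muscle sums (315, 290 and 295 against 283 and 289) were lower on both stimulated arrays. Xist, the RNA of the inactive X chromosome, read 9.09, 10.20 and 9.66 against 4.16 and 4.11. The Y-linked genes, named after their values were seen, had signal on every array, unstimulated ones included: Eif2s3y read 7.15 to 8.76 against 8.37 and 8.48, Uty 6.46 to 8.35 against 7.13 and 7.25, and Kdm5d 5.69 to 6.81 against 7.41 and 7.42. The part of these differences in the results was not tested. In such bulk samples, fewer cells of a type and less RNA per cell cannot be told apart.

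Of the 37 measured genes, 1 rose, the triose phosphate isomerase gene Tpi1, and 1 fell, the glucose transporter gene Slc2a3. Of all 19938 genes, 147 (0.737%) were called higher and 192 (0.963%) lower, 1.70% in all; after centring each array on its median, the split was 660 higher and 526 lower. At an adjusted p under 0.1, 4 of the 37 were higher (3.79% of all genes) and 1 lower (3.49%), and at an unadjusted p under 0.05, 13 were higher (11.3% of all genes) and 2 lower (8.58%). The groups overlapped for 16 of the 37 and did not for the others, against 32.5% of all genes without overlap: both stimulated arrays lay above every unstimulated array for 16 (43.2%; 18.6% of all genes) and below for 5 (13.5%; 14.0% of all genes). The median difference over the 37 was 0.18, against 0.00 over all genes, with 25 differences above 0, 11 below and 1 at 0. By step, the medians were 0.67 for lower glycolysis, 0.42 for the pentose phosphate pathway, 0.24 for the lactate step and 0.07 for glucose transporters. They were 0.00 for hexokinases, -0.01 for phosphofructokinases with their regulators, and -0.10 for pyruvate dehydrogenase and its kinases. The hexokinase median is the value of Hk3, which read the same on all 5 arrays, beside -0.13 for Hk1 and 0.22 for Hk2. Values of 13 of the 37 were repeated on 2 or more arrays to 5 decimals, as were those of 12359 genes of all, so that their spread may be understated.

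**Figure D1:**
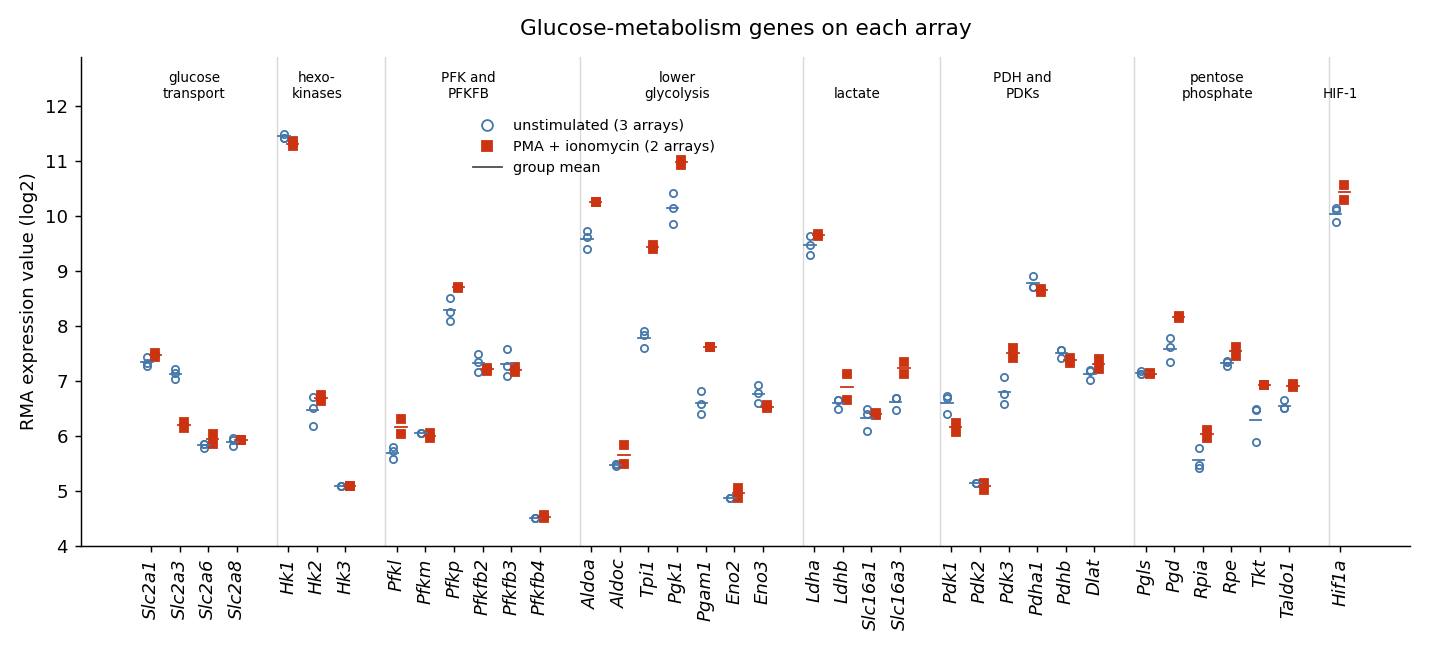
RMA expression value (log2) of each measured gene on each array, ordered by step; open circles are the 3 unstimulated arrays, filled squares the 2 PMA and ionomycin arrays, and short lines the group means. Tpi1 stands at 7.60 to 7.90 unstimulated and 9.40 to 9.47 stimulated, and Slc2a3 at 7.03 to 7.22 and 6.14 to 6.25, while the groups of 16 genes overlap.

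The 4 glucose transporter genes did not move together. Slc2a3, which codes for the high-affinity transporter GLUT3, read 7.03, 7.22 and 7.14 on the unstimulated arrays and 6.14 and 6.25 on the stimulated ones. All 3 unstimulated arrays lay above both stimulated arrays. Slc2a3 fell 1.91-fold (difference -0.94 ± 0.08 SE, 95% interval -1.15 to -0.72, limma adjusted p = 0.0416). Among the unstimulated arrays Slc2a3 was lowest on array 1, on which endothelial, epithelial and neutrophil marker sums were highest. The mast cell and basophil marker sum had the same array order as Slc2a3 (201, 286 and 232, against 121 and 124 stimulated). The T cell marker sum, like Slc2a3, was highest on array 2. The part of other cells in the Slc2a3 difference was not tested. Slc2a1, which codes for the widely expressed transporter GLUT1, read 7.32, 7.44 and 7.27 against 7.44 and 7.51, and its groups overlapped (0.13 ± 0.06 SE, 95% interval -0.05 to 0.31). Slc2a6 (0.11 ± 0.07) and Slc2a8 (0.03 ± 0.05) had overlapping groups too. The change of Slc2a1 against Slc2a3 can be read within each array, free of array-wide scaling: their difference was 0.29, 0.21 and 0.14 on the unstimulated arrays and 1.30 and 1.25 on the stimulated arrays, a shift of 1.06. A permutation test over 10 splits of the arrays gave p = 0.1, the smallest this design allows (0.3 after adjustment over 6 pairs). Slc2a3 lost its call without each array in turn, with adjusted p = 0.0919, 0.125 and 0.0874 without unstimulated arrays 1, 2 and 3, and 0.101 and 0.0762 without stimulated arrays 1 and 2. Without a stimulated array that group is 1 sample, which is assumed to vary like the unstimulated ones.

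Hexokinases, which phosphorylate glucose on entry, had no called member by limma and none at an unadjusted p under 0.05 (19.9% of all genes). Hk2, the inducible form, read 6.18, 6.71 and 6.51 against 6.75 and 6.63 (0.22 ± 0.19 SE, 95% interval -0.32 to 0.75). Its stimulated values lay within or just above the wide unstimulated range. Hk3 had the value 5.09 on all 5 arrays, so nothing can be read about it. Hk1, the widely expressed form that binds mitochondria, depended on its probe set. The brightest probe set, 10414661, read 11.50, 11.42 and 11.42 against 11.37 and 11.27 (-0.13 ± 0.05 SE, adjusted p = 0.259), lower on both stimulated arrays. Its annotation rests on 1 cDNA record. The same record also appears in the annotation of 16 probe sets that list Rpl17, a ribosomal protein gene, beside Hk1, whose mean values were 11.02 to 12.16 and whose differences were -0.19 to -0.05. The other Hk1 probe set, 10369541, whose annotation includes RefSeq transcripts of Hk1, read 6.80, 7.06 and 7.06 against 7.06 and 7.39, a difference of 0.25 with overlapping groups (adjusted p = 0.466 in a fit with RefSeq-backed probe sets only). The direction of Hk1 is therefore not settled by these values. The shift of Hk2 against Hk1 was 0.35 with the brightest probe set (exact permutation p = 0.2) and -0.034 with the RefSeq-backed one (exact permutation p = 1).

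**Figure D2:**
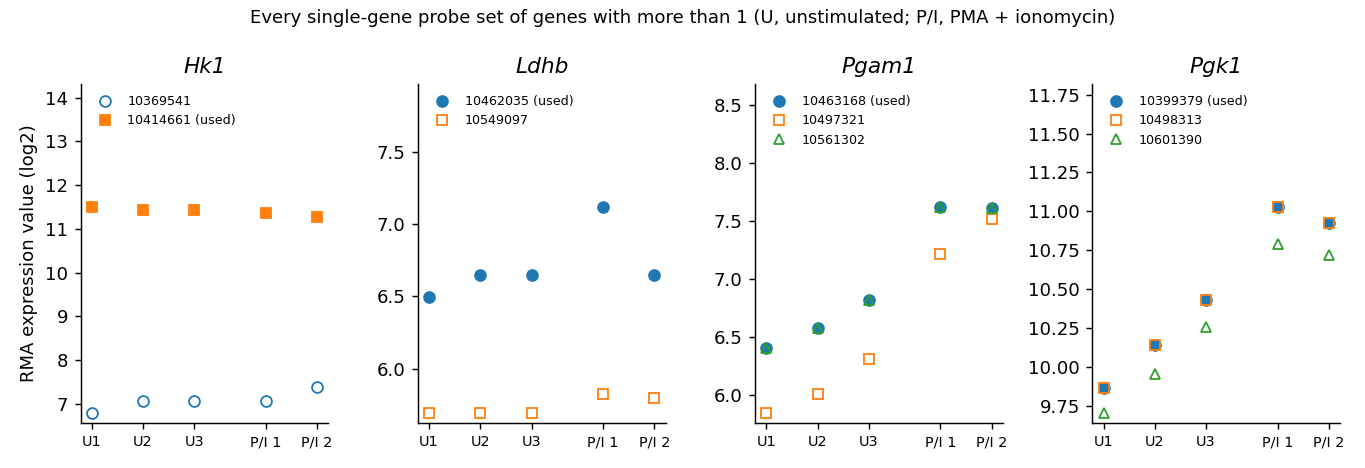
RMA expression values (log2) on each array for every single-gene probe set of the 4 genes with more than 1; U1 to U3 are unstimulated arrays, P/I 1 and 2 stimulated arrays, and filled symbols the probe set used. The Hk1 probe sets lie near 11.4 and 7.06 and differ in direction, while those of Pgam1 and Pgk1 move the same way.

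Phosphofructokinase commits sugar to glycolysis, and the PFKFB enzymes make and break fructose 2,6-bisphosphate, its strongest activator. Of 6 measured genes of this step, none was called by limma and 2 had an unadjusted p under 0.05 (19.9% of all genes). Pfkl, the liver-type subunit, read 5.57, 5.80 and 5.72 against 6.03 and 6.31 (0.47 ± 0.12 SE, adjusted p = 0.165), and Pfkp, the platelet-type subunit, 8.10, 8.51 and 8.25 against 8.72 and 8.69 (0.42 ± 0.14 SE, adjusted p = 0.242). Both stimulated arrays exceeded every unstimulated array for both genes. The muscle-type subunit gene Pfkm was at 6.06 on 4 arrays and 5.95 on stimulated array 2. Against each other, Pfkp and Pfkl shifted by -0.06 (exact permutation p = 0.9). Pfkfb3, whose enzyme favours synthesis of the activator, read 7.59, 7.26 and 7.09 against 7.24 and 7.17, and Pfkfb2 7.49, 7.34 and 7.16 against 7.24 and 7.18. The stimulated values of both genes lay inside the unstimulated range. Pfkfb4 was at 4.50 on 4 arrays and 4.55 on stimulated array 2, just above 4.49, the lower quartile of all values.

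Lower glycolysis held both genes that differed by 2-fold or more, Tpi1 and Pgam1. Tpi1 interconverts the 2 triose phosphates and read 7.60, 7.90 and 7.84 unstimulated and 9.40 and 9.47 stimulated. Every stimulated array lay far above every unstimulated one. Tpi1 rose 3.14-fold (1.65 ± 0.11 SE, 95% interval 1.33 to 1.97, limma adjusted p = 0.0352). Leaving out any single array took the adjusted p past the threshold, to 0.0714, 0.111 and 0.0730 without unstimulated arrays 1, 2 and 3, and 0.0871 and 0.0803 without stimulated arrays 1 and 2, with differences of 1.56 to 1.71. As above, the spread in the last pair of fits comes from the unstimulated arrays alone.

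The enzymes on either side of it differed less and did not pass the test. Pgam1, phosphoglycerate mutase, read 6.40, 6.57 and 6.82 against 7.62 and 7.61, a 2.03-fold difference (1.02 ± 0.14 SE, 95% interval 0.61 to 1.43, adjusted p = 0.0712). Aldoa, the widely expressed aldolase, read 9.41, 9.61 and 9.73 against 10.25 and 10.26 (0.67 ± 0.11 SE, adjusted p = 0.0872). Pgk1, phosphoglycerate kinase, the enzyme of the first ATP-yielding reaction, read 9.86, 10.14 and 10.43 against 11.03 and 10.93 (0.83 ± 0.19 SE, adjusted p = 0.138). For each of these 3 genes, unstimulated array 1 was lowest and array 3 closest to the stimulated arrays. That array order is the reverse of the order of the endothelial, epithelial and neutrophil marker sums, whose part was not tested. Array 1 was also the lowest unstimulated array for Tpi1. Among the 37 genes, 15 were higher on both stimulated arrays and had 3 distinct unstimulated values. Of those, 12 were lowest on array 1 (80.0%), against 39.3% of all genes with 3 distinct unstimulated values. Probe sets of Pgam1 differed by 1.02, 1.02 and 1.32 and those of Pgk1 by 0.83, 0.83 and 0.78. In each gene 2 of the 3 probe sets held identical values, so they are not separate measurements. All 3 probe sets of each gene carry the same accessions, and copies such as pseudogenes could share their signal.

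The tissue-restricted isozymes of this step stayed apart from that pattern. Aldoc, the brain-type aldolase, read 5.45, 5.49 and 5.49 against 5.49 and 5.83 (0.18 ± 0.12 SE). Eno2, the neuronal enolase, was at 4.88 on 4 arrays and 5.04 on stimulated array 1, and Eno3, the muscle enolase, read 6.78, 6.92 and 6.60 against 6.50 and 6.56 (-0.24 ± 0.11 SE, adjusted p = 0.379). Aldoc and Eno2 had overlapping groups, and Eno3 was lower on both stimulated arrays. Of 7 genes of lower glycolysis 4 had an unadjusted p under 0.05 (19.9% of all genes).

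**Figure D3:**
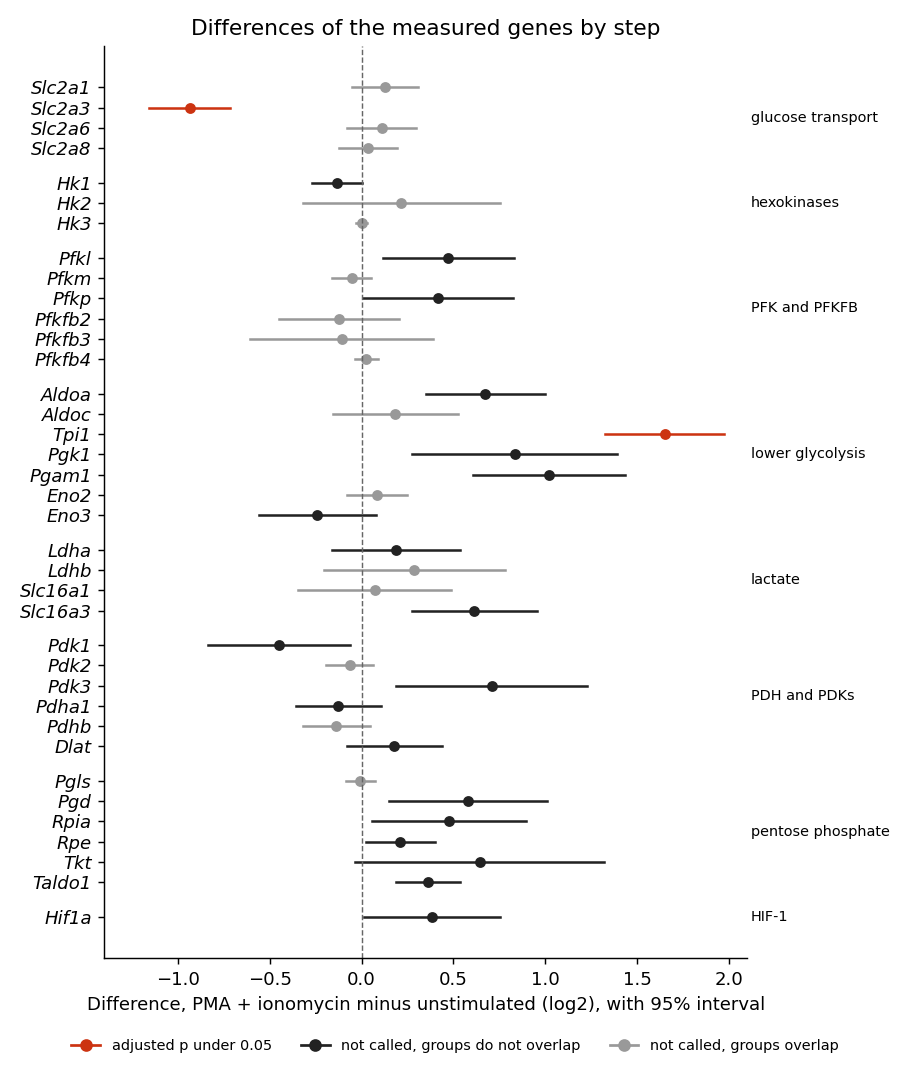
Difference (PMA and ionomycin minus unstimulated, log2) of each measured gene with its 95% interval from limma, by step; red marks an adjusted p under 0.05, black groups that do not overlap, grey groups that overlap. Tpi1 (1.65) and Slc2a3 (-0.94) stand at the ends of the range, and 13 intervals lie wholly above 0 and 2 wholly below.

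At the lactate step no gene was called by limma, and 1 had an unadjusted p under 0.05 (19.9% of all genes). That gene was Slc16a3, which codes for the lactate exporter MCT4: it read 6.46, 6.70 and 6.70 against 7.12 and 7.34, a 1.53-fold difference (0.61 ± 0.12 SE, 95% interval 0.27 to 0.96, adjusted p = 0.106). Both stimulated arrays lay above all unstimulated ones. Slc16a1, which codes for the related transporter MCT1, read 6.49, 6.41 and 6.09 against 6.42 and 6.38, within one range (0.07 ± 0.14 SE). The shift of Slc16a3 against Slc16a1 was 0.54 (exact permutation p = 0.2). Ldha, the lactate dehydrogenase subunit typical of glycolytic cells, read 9.47, 9.64 and 9.29 against 9.64 and 9.67. Its lowest stimulated value barely exceeded its highest unstimulated one, and the difference was 0.19 ± 0.12 SE (95% interval -0.16 to 0.54, adjusted p = 0.474). Ldhb, the heart-type subunit, was higher on stimulated array 1 (7.12) than on the other 4 arrays (6.49 to 6.65) by its brightest probe set. Its other probe set, 10549097, read 5.69 on every unstimulated array and 5.82 and 5.80 on the stimulated ones, a difference of 0.11. Against each other Ldha and Ldhb shifted by -0.10 (exact permutation p = 0.7).

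The change within isozyme or transporter pairs was compared in 6 pairs in all. After adjustment over the pairs, the permutation p was 0.3 for Slc2a1 and Slc2a3, Hk2 and Hk1, Slc16a3 and Slc16a1, and Pdk1 and Pdk2, 0.84 for Ldha and Ldhb, and 0.9 for Pfkp and Pfkl. The shift of 1.06 between the GLUT genes was the widest of the 6. With 10 splits of 5 arrays, none of these tests could pass 0.05.

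**Figure D4:**
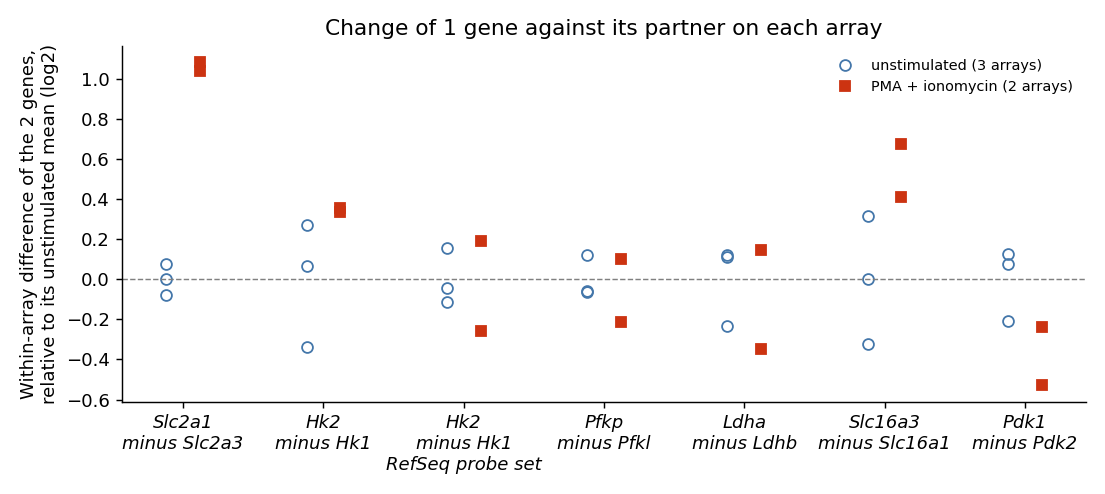
Within-array difference between 2 genes of a step (log2), shown relative to its unstimulated mean, on the 3 unstimulated (open circles) and 2 stimulated arrays (filled squares); Hk2 minus Hk1 is drawn with the brightest and with the RefSeq-backed Hk1 probe set. The stimulated arrays stand 1.06 above the unstimulated mean for Slc2a1 minus Slc2a3, and the groups overlap for Pfkp minus Pfkl, Ldha minus Ldhb and the RefSeq-backed Hk1.

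Genes of the pyruvate dehydrogenase complex and of its kinases went in both directions. None of the 6 was called by limma, and 2 had an unadjusted p under 0.05 (19.9% of all genes). Pdk1, a kinase that shuts the complex and a known HIF-1 target, read 6.68, 6.73 and 6.40 against 6.23 and 6.08 (-0.45 ± 0.13 SE, 95% interval -0.84 to -0.06, adjusted p = 0.199). Pdk3, a kinase of the same family, read 6.58, 7.07 and 6.76 against 7.60 and 7.42, a 1.63-fold difference (0.71 ± 0.18 SE, 95% interval 0.19 to 1.23, adjusted p = 0.158). The 2 kinase genes thus stood on opposite sides, and neither passed the test. Pdk2 was at 5.14 on 4 arrays and 5.01 on stimulated array 1, and Pdk1 shifted by -0.38 against it (exact permutation p = 0.2). The subunit genes listed for this step varied little. Pdha1, the E1 alpha subunit, differed by -0.13 ± 0.08 SE, Pdhb, the E1 beta subunit, by -0.14 ± 0.06, and Dlat, the E2 subunit, by 0.18 ± 0.09. Pdha1 read 8.72, 8.91 and 8.71 against 8.68 and 8.63, and Dlat 7.18, 7.20 and 7.02 against 7.22 and 7.39. Subunit genes outside this step, Dld and Pdhx, named after their values were seen, were higher on both stimulated arrays without passing the test. Dld, the E3 subunit, read 8.86, 8.94 and 9.07 against 9.53 and 9.42 (0.52 ± 0.08 SE, limma adjusted p = 0.0826). Pdhx differed by 0.32 ± 0.12 SE (limma adjusted p = 0.296). The gene Pdk3, like Pgk1 and Pdha1, lies on the X chromosome, and of these 3 measured X-linked genes 2 were higher and 1 lower on the stimulated arrays, on which Xist was at 4.11 and 4.16. The labels do not give the sex of the mice, and the part of the Xist difference in these values was not tested.

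In the pentose phosphate pathway both stimulated arrays exceeded all unstimulated arrays for 5 of the 6 measured genes (18.6% of all genes). None was called by limma, and 4 had an unadjusted p under 0.05 (19.9% of all genes). Of the oxidative branch, Pgd, the 6-phosphogluconate dehydrogenase that makes NADPH, read 7.35, 7.61 and 7.79 against 8.19 and 8.14 (0.58 ± 0.15 SE, 95% interval 0.15 to 1.01, adjusted p = 0.159). Pgls, the lactonase before it, read 7.12 to 7.18 on all 5 arrays, a difference of -0.01 ± 0.03 SE (95% interval -0.08 to 0.07). The interval for Pgls holds no change larger than 0.08 in either direction.

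The non-oxidative branch exchanges sugars between the pathway and glycolysis. Tkt, transketolase, read 5.88, 6.48 and 6.49 against 6.92 and 6.93 (0.64 ± 0.23 SE, adjusted p = 0.272), with unstimulated array 1 well under the others. Taldo1, transaldolase, read 6.50, 6.64 and 6.50 against 6.94 and 6.89, a smaller but tighter difference (0.36 ± 0.06 SE, adjusted p = 0.0872). Rpia, the ribose 5-phosphate isomerase, read 5.41, 5.47 and 5.79 against 5.96 and 6.11 (0.48 ± 0.15 SE, adjusted p = 0.205). Rpe, the epimerase, read 7.26, 7.34 and 7.37 against 7.61 and 7.46 (0.21 ± 0.07 SE, adjusted p = 0.211).

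Hif1a, the oxygen-regulated subunit of HIF-1, read 10.14, 10.11 and 9.89 against 10.56 and 10.29. Both stimulated arrays were higher, and the difference did not pass the test (0.38 ± 0.13 SE, 95% interval 0.01 to 0.76, adjusted p = 0.238). HIF-1 is controlled mainly through the stability of its protein, which arrays do not show. It binds ACGTG or GCGTG, and MYC and carbohydrate-response factors bind boxes with the letters CACGTG. These letters were searched on both strands in the 250 bases before each RefSeq gene start (GRCm38.p6), counting a gene if any of its listed starts had a match. Every CACGTG also holds ACGTG on each strand. Of the 37 measured genes 36 matched the promoter table, and Slc2a3 did not. ACGTG was present for 16 of the 36 (44.4%; 18.5% of 27025 genes in the table), CACGTG for 7 (19.4%; 6.86%) and GCGTG for 25 (69.4%; 30.9%). Base composition was not matched between these sets. Among the 16 genes with both stimulated arrays above all unstimulated ones 7 held ACGTG (43.8%), and among the 20 others 9 did (45.0%). CACGTG was held by 2 of the 16 (12.5%) and 5 of the 20 (25.0%), and GCGTG by 9 of the 16 (56.2%) and 16 of the 20 (80.0%), differences that were not tested. A match is only a run of letters and not a bound site.

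The promoters of 4 genes are printed because they pair different motif counts with different expression. That of Tpi1, which rose, holds none of the 3 motifs. That of Ldha, whose difference was 0.19, holds 5 ACGTG matches, counting each of its 2 CACGTG boxes on both strands. The other listed Ldha start holds 0 ACGTG matches. Those of Pgk1 and Slc16a3, with differences of 0.83 and 0.61, hold 2 each. Any link of motif count to expression was not tested. Capitals mark ACGTG and its reverse complement CACGT, and each sequence is the gene strand, 5′ to 3′, ending at the base before the start. The Tpi1 window is chr6:124814159-124814408 (minus strand), that of Ldha chr7:46845554-46845803 (plus strand, 1 of its 2 listed starts), that of Pgk1 chrX:106186850-106187099 (plus strand) and that of Slc16a3 chr11:120948817-120949066 (plus strand).
Tpi1: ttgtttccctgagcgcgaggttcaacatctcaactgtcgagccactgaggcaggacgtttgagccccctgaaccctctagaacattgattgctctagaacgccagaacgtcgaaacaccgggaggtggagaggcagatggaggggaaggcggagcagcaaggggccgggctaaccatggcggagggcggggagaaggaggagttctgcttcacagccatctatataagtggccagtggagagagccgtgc
Ldha: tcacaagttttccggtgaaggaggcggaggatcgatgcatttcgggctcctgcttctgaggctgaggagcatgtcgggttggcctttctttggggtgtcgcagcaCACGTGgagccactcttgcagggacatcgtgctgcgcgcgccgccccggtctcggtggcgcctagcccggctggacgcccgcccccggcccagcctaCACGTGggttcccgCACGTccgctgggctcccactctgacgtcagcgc
Pgk1: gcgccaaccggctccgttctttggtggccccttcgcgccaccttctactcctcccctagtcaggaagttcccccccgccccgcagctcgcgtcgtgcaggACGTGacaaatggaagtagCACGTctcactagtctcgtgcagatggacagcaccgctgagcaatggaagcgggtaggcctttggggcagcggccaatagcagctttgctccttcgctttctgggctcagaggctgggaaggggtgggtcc
Slc16a3: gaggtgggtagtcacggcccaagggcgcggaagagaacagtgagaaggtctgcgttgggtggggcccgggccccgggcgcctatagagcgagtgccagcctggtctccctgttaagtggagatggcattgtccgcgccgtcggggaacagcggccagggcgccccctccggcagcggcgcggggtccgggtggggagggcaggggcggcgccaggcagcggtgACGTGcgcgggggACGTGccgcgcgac

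Other genes of the same pathways were listed by pathway, and their calls are read against the 1.70% of all genes called. Of 27 further genes for glucose transport, glycolysis and pyruvate handling none was called by limma. An unadjusted p under 0.05 was found for 5 (19.9% of all genes). Both stimulated arrays were above all unstimulated ones for 7 (18.6% of all genes) and below for 2 (14.0% of all genes), with a median of 0.01. Pkm, pyruvate kinase, the last enzyme of glycolysis, read 8.83, 9.23 and 9.35 against 9.82 and 9.78 (0.67 ± 0.19 SE, adjusted p = 0.179), and Bpgm, which diverts sugar phosphates to 2,3-bisphosphoglycerate, differed by 0.23 ± 0.07 SE (adjusted p = 0.187). Bsg, named after its values were seen, codes for basigin, the partner that carries MCT1 and MCT4 to the cell surface, and read 7.65, 8.04 and 7.77 against 8.92 and 8.88 (1.08 ± 0.14 SE, adjusted p = 0.0645). All 3 genes were higher on both stimulated arrays without passing the test. Gapdh, Gpi1 and Eno1 were not analysed here.

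Of 14 further pentose phosphate and NADPH genes none was called by limma, and 3 had an unadjusted p under 0.05 (19.9% of all genes). Both stimulated arrays were above all unstimulated ones for 6 (18.6% of all genes) and below for 1 (14.0%), with a median difference of 0.14. Tigar, whose product lowers fructose 2,6-bisphosphate, had overlapping groups (0.16 ± 0.15 SE). In 15 genes of gluconeogenesis and glycogen 1 fell, Pgm2l1, which makes glucose 1,6-bisphosphate, from 8.27, 8.63 and 8.24 to 6.78 and 6.72 (-1.63 ± 0.15 SE, limma adjusted p = 0.0456), and none rose.

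Regulators of glucose use gave 1 call among 15. Txnip, whose product restrains glucose uptake by GLUT transporters and whose transcription follows glucose supply, read 9.55, 9.57 and 9.67 against 7.25 and 7.39. It fell 4.85-fold (-2.28 ± 0.06 SE, limma adjusted p = 0.0168), a wider difference than any of the 37 genes showed. Myc read 9.47, 9.58 and 9.02 against 9.08 and 8.89, and its groups overlapped (-0.37 ± 0.21 SE, adjusted p = 0.467).

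Genes of the HIF-1 system and HIF-1 targets outside glucose metabolism did not share a direction. None of 8 system genes was called by limma, and 1 had an unadjusted p under 0.05 (19.9% of all genes). Arnt, the constant partner of HIF-1 alpha, differed by -0.04 ± 0.02 SE. Epas1, which codes for HIF-2 alpha, is also an endothelial gene and was named after its values were seen. It was highest on unstimulated array 1 (9.20) and lowest of that group on array 3 (7.73), as was the endothelial marker sum, and read 6.86 and 6.84 on the stimulated arrays. Of 17 targets, Tfrc, the transferrin receptor gene (1.48 ± 0.11 SE, adjusted p = 0.0363), and Higd1a, a mitochondrial protein gene (0.62 ± 0.04, adjusted p = 0.0352), rose, and Bhlhe40, a transcription factor gene (-1.85 ± 0.12, adjusted p = 0.0323), fell by limma. Vegfa, the growth factor gene often used as a HIF-1 readout, differed by -0.70 ± 0.20 SE (adjusted p = 0.191), and the median of the 17 was -0.06.

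**Figure D5:**
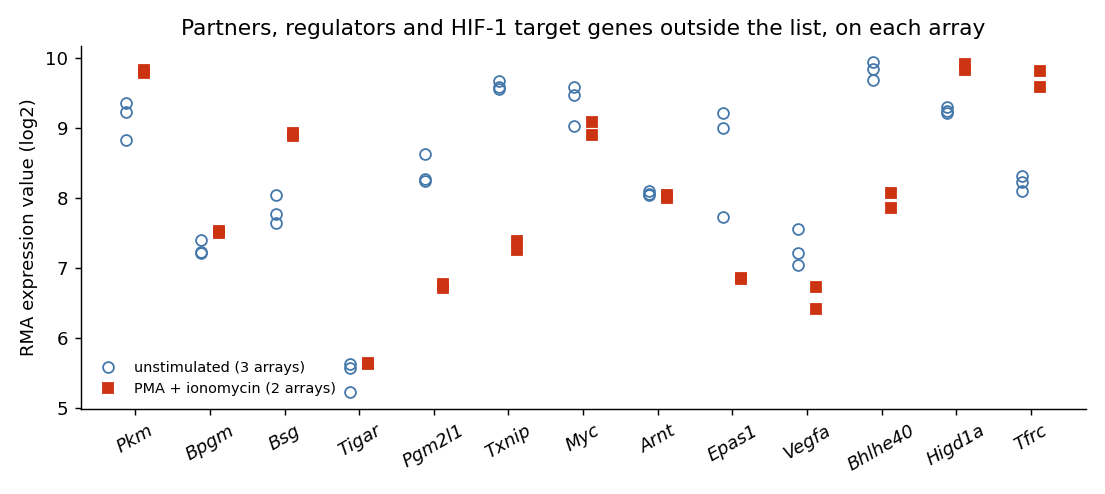
RMA expression values (log2) on each array for genes outside the 39, open circles unstimulated and filled squares stimulated; Bsg and Epas1 were chosen after their values were seen. Txnip stands at 9.55 to 9.67 unstimulated and 7.25 to 7.39 stimulated, Tfrc and Higd1a are higher and Bhlhe40 and Pgm2l1 lower on both stimulated arrays, and Arnt lies at 8.00 to 8.09 throughout.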

How the data were processed

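Samples were hybridised as biotin-labelled cRNA to 1-colour Affymetrix arrays. The deposited values, which lie on a log2 scale by their range, were made, per the submitters' processing notes, with RMA, which corrects background, normalizes and sums probes into probe sets. Its version, the arrays normalized together and the genome build are not given in the sources used here. There are no detection calls, and 5 arrays limit the precision.

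Of 35556 probe sets, 21789 were annotated to 1 gene, 1621 to several, and 12146 were not listed in the platform table and are unnamed here. Those with 1 gene were kept, the brightest over 5 arrays per gene. Groups were compared with limma 3.58.1 (R 4.3.3; prior degrees of freedom 0.649, residual 3; no filter on dim genes), tested on simulated data. Isozyme pairs were compared by an exact two-sided permutation test. Plots used matplotlib 3.10.9.

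The genes, lists, pairs and naming rule were chosen with earlier results of these data known. The rule named all 39 genes, from each further list the called genes (at most 4) and a few set genes, and cell type markers. Alternatives covered variance models, array weights, filters, probe sets, normalization, thresholds, the replicate block and left-out arrays.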

Additional observations from a re-analysis of the deposited data

How the results depend on the processing

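The calls of Tpi1 as higher and Slc2a3 as lower were kept with an intensity trend, array weights, both filters on dim genes, other choices of probe set, quantile normalization and median centring. Both were lost with robust variances (0 higher, 0 lower), with limma adjusted p = 0.0504 for Tpi1 and 0.0589 for Slc2a3. In that fit 13 of the 37 had an unadjusted p under 0.05, as had 3764 of all 19938 genes. Both were lost too at a threshold of 0.01 (0 and 0). More of the 37 genes were called higher when only genes brighter than the overall median were tested (5, of 32 left), where 7.96% of the tested genes were. The count was 4 after quantile normalization (4.14% of all genes), 3 after median centring (3.31%) and 4 at a threshold of 0.1 (3.79%). Among genes with 5 distinct values, a filter chosen after seeing the data, it was 7, of 24 left (20.4% of the tested genes). The counts over all genes moved too, from 147 higher and 192 lower to 45 and 66 with robust variances. They were 825 and 729 after quantile normalization and 660 and 526 after median centring. Under the filters they were 317 and 351 of 15850 genes above the lower quartile and 824 and 716 of 10356 above the median. With 5 distinct values they were 1548 and 1161 of 7579. Leaving out each array gave 0 to 1 of the 37 called higher and 0 to 1 lower, and without unstimulated array 2 no gene of the whole table was called (3024 had an unadjusted p under 0.05). Without stimulated array 1 the calls were Aldoc and Pfkm, and without stimulated array 2 Eno2 and Pdk2, genes with repeated values.

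The median of lower glycolysis was 0.83 among genes brighter than the overall median and 0.59 to 0.75 with an array left out, and that of the lactate step 0.13 to 0.34. With 5 distinct values, medians were -0.94 for transporters (Slc2a3 alone), 0.15 for phosphofructokinases, 0.83 for lower glycolysis and 0.13 for the lactate step. Small differences changed sign for Hk1 (0.059 with averaged probe sets, 0.25 with RefSeq-backed ones, where Hk2 minus Hk1 was -0.034) and Pgls (0.015 after median centring). With an array left out, differences ranged from -0.020 to 0.013 for Pgls, -0.048 to 0.15 for Slc16a1, -0.22 to 0.029 for Pfkfb3 and -0.012 to 0.063 for Slc2a8. The cause was not tested.

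With the replicate number as a block, 0 of the 37 genes were called higher and 0 lower by limma, as were 0 of all genes. An unadjusted p under 0.05 was found for 12 of the 37 and for 3568 of all 19938 genes. Slc16a1 differed by -0.048 in that fit. Deviations of same-numbered arrays from their group means had correlations of -0.145 and -0.058 across genes. The deviations of the stimulated arrays mirror each other by construction, so these values cannot show whether the numbers pair the samples.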
